A study of Mus musculus with 6 samples.

Results

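The transforming growth factor beta (TGF-beta) and bone morphogenetic protein (BMP) set comprised 10 genes: the ligands Tgfb1, Tgfb2, Tgfb3, Bmp2, Bmp4 and Bmp7, the type I receptor Bmpr1b, and the secreted antagonists Nbl1, Nog and Grem1. It was selected on measured values of these same libraries, namely where the genes' transcripts lay and how they differed between tropicamide and saline, so both are given below as descriptions. The fits across all genes cover these 10 too, and their calls are counted beside the share of all genes called, with nothing read from them. All 10 were present among the 33696 genes of the count tables, with 517 (Grem1) to 40305 (Nbl1) unique molecular identifiers (UMIs, each an original RNA molecule) in the cells kept. Single-cell RNA profiles came from the mouse ocular cup, the eyeball without cornea and lens, of which the posterior sclera, choroid and retina were kept. Of 12 mice per group, 1 group received tropicamide eye drops every 10 min for 6 drops and was left for 1 h. The other received saline at the same frequency, and the labels give the ciliary muscle as relaxed after tropicamide and contracted after saline. Each of the 3 libraries of a group pooled 4 right eyes, so an eye or mouse cannot be followed within a library. Strain, age and sex are not stated in the labels.

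TGF-beta and BMP ligands are secreted dimers that bind paired type I and type II serine/threonine kinase receptors and signal through Smad proteins, the TGF-beta branch mainly through Smad2 and Smad3 and the BMP branch through Smad1, Smad5 and Smad9. TGF-beta is secreted in a latent form held in the matrix, whereas BMPs are held back outside the cell by binding proteins such as noggin and gremlin. In the eye these pathways are known for their roles in retinal patterning, scleral matrix turnover and eye growth, and BMP transcripts of the retinal pigment epithelium change in animal models of altered eye growth.

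The start regions of 3 of the genes are shown because their transcripts set the patterns described below. Tgfb2 was held by both neural retina and stroma, and Bmp4 by pigment epithelium and stroma. Bmpr1b, the only receptor of the set, had lower values after tropicamide in fibroblast-like cells, where edgeR did not call it. The sequences are the 250 bases before the RefSeq transcript start, 5′ to 3′ on the gene's strand (minus for all 3) in GRCm38.p6, at chr1:186705990-186706239 for Tgfb2, chr14:46390670-46390919 for Bmp4 and chr3:141982265-141982514 for Bmpr1b, whose table lists 3 starts with the first shown here. Capitals mark TAATCC, the core bound by CRX and OTX homeodomain factors, CACGTG, an E-box bound by MITF among others, or GGCGCC, a GC-rich Smad motif, on either strand.
Tgfb2: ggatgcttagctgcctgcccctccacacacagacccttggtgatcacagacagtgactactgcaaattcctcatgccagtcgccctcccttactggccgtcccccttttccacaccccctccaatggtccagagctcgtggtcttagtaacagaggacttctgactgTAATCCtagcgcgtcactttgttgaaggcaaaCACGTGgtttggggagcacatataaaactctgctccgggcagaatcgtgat
Bmp4: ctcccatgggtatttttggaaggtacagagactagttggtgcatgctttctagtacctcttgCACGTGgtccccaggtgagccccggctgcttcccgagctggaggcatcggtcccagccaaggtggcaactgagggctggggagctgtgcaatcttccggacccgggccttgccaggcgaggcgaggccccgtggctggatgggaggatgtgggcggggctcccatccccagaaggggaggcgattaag
Bmpr1b: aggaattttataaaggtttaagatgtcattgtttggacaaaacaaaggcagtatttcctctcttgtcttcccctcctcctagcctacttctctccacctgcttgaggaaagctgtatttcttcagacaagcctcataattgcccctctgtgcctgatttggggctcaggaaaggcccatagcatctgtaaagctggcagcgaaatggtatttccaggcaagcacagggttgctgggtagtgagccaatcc
The Tgfb2 window held 1 TAATCC and 1 CACGTG, the Bmp4 window 1 CACGTG, and the Bmpr1b window none of the 3 motifs. Among 32851 windows of this length in the RefSeq table, 6.25% held TAATCC, 6.02% held CACGTG and 9.59% held GGCGCC. The table matched 6 of the 10 genes, and a match describes letters and not a bound site.

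The 6 libraries held 9472 to 13518 barcodes and 30761887 to 49477707 UMIs, with medians of 2188.5 to 2527.5 UMIs per barcode. After filters and removal of doublets 60096 cells remained, of which 40637 were rod-like. The groups differed in makeup: rod-like cells made up 53.9% to 67.5% of the cells in tropicamide libraries and 69.7% to 82.0% in saline libraries, and retinal pigment epithelium-like (RPE-like) cells 3.21% to 5.71% against 0.691% to 1.91%. Corneal or conjunctival epithelium-like cells, 175 in all, were present although the label excludes the cornea. Classes are called "-like" where their clusters carried fixed marker genes, and unnamed clusters keep a number with their leading genes. RPE-like cells carried Rpe65 at a mean of 4634 CPM (counts per 1000000 UMIs of the class in a library), fibroblast-like cells Dcn at 14335 CPM, and rod-like cells Gnat1 at 2331 CPM. Levels below are UMIs summed over a class in a library, in CPM, as mean ± SD over 6 libraries, and are compared only within a gene.

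**Figure D1:**
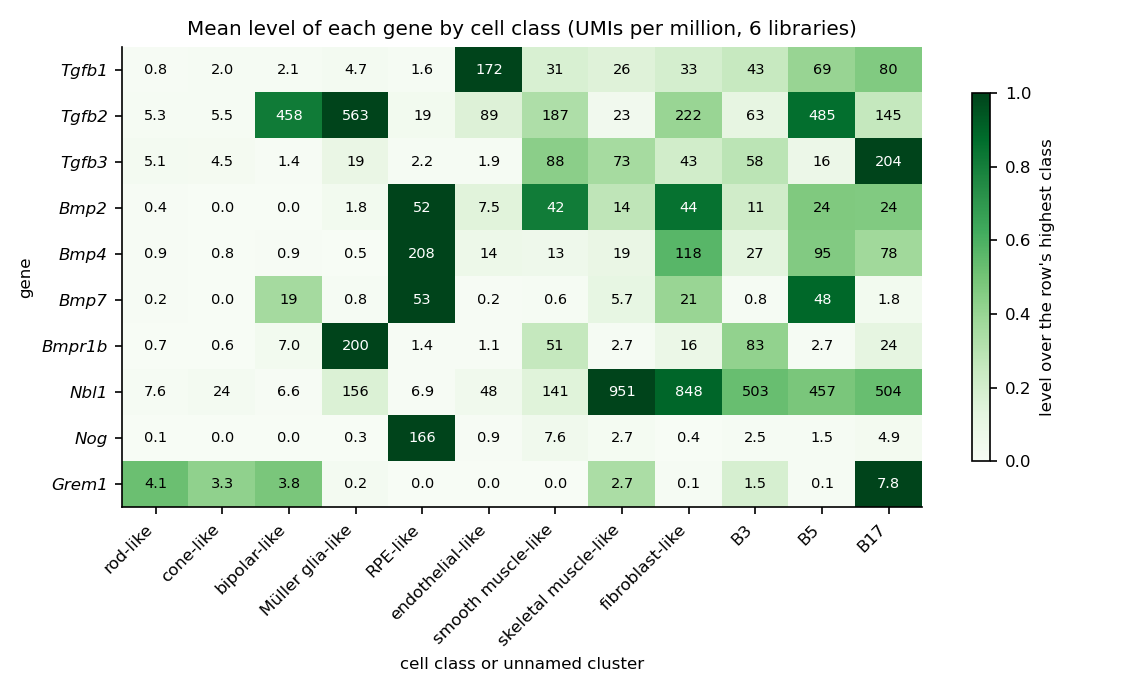
Mean level of the 10 genes (rows) in 9 named classes and 3 unnamed stromal clusters (columns), in CPM over 6 libraries. Numbers are the means and shading is the level over the highest class in the row: Nog is dark in RPE-like cells alone at 166, and Tgfb1 in endothelial-like cells at 172.

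The 3 TGF-beta ligands had different source cells. Tgfb1, the isoform best known from immune and vascular cells, was highest in endothelial-like cells at 172 ± 24.6 CPM, whose lowest library (142 CPM) lay above every library of the next class, the unnamed cluster B17 led by the tendon and cartilage genes Fmod, Chad and Tnmd (79.6 ± 33.0 CPM). B17 in turn overlapped cluster B5, led by Ptn, Edn3, Wnt10a and Wnt6 (68.8 ± 16.3 CPM), and fibroblast-like cells held 33.4 ± 5.30 CPM. Within the endothelial-like class the Plvap-led cluster B13 held 281 CPM (exact Poisson 95% interval 260 to 304, counting error only) and the cluster B7, led by Slco1a4 and Abcb1a, 135 CPM (123 to 149). A small unnamed cluster led by Lyz2 and Cd74, B20, held 200 CPM (174 to 228) in 148 cells. Endothelial-like cells contributed 36.7% of all Tgfb1 UMIs and fibroblast-like cells 25.3%.

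Tgfb2, the main TGF-beta isoform of the aqueous humour, was a transcript of both neural retina and stroma. Müller glia-like cells held 563 ± 62.3 CPM, cluster B5 485 ± 114 CPM and bipolar-like cells 458 ± 59.6 CPM, and these 3 overlapped in their libraries. Every bipolar-like library lay above every fibroblast-like library (222 ± 43.6 CPM). Among bipolar-like clusters the level varied widely: 692 CPM (644 to 742) in B22, led by the rod bipolar gene Pcp2 and Trpm1, 465 CPM (417 to 518) in B24, 58.3 CPM (34.6 to 92.2) in B35 and 0 of the UMIs in B39, which allows up to 14.3 CPM. The 85 ciliary or iris epithelium-like cells held 742 CPM (701 to 784). Rod-like cells held 5.33 CPM. By number of molecules fibroblast-like cells led with 7273 of 17194 UMIs (42.3%), followed by B5 with 16.8%.

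Tgfb3, the isoform linked to palate and tendon development, was highest in B17 at 204 ± 35.6 CPM, then in smooth muscle-like cells (88.4 ± 54.0 CPM), whose libraries overlapped those of B17. Cluster B3, led by Smoc1, Serpine2, Pgf and Angpt1, held 58.2 ± 12.8 CPM, with no overlap with the 42.7 ± 1.96 CPM of fibroblast-like cells. Endothelial-like, RPE-like and bipolar-like cells held under 3 CPM each.

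The BMP ligands were stromal and pigment-epithelial. Bmp4, a ligand with roles in lens induction and dorsal retina, was at 208 ± 33.0 CPM in RPE-like cells, with every library above the fibroblast-like libraries (118 ± 6.20 CPM). The 92 cells of cluster B28, led by Erfe, Chodl and Nppc, held a pooled 226 CPM (190 to 266), beside a pooled 201 CPM (188 to 214) in RPE-like cells. Cluster B5 held 95.3 ± 18.7 CPM. By molecules, fibroblast-like cells held 62.0% of Bmp4 and RPE-like cells 13.8%. The fibroblast-like clusters differed: the Eln- and Postn-led B6 held 191 CPM (182 to 201), the Smoc2-led B4 129 CPM (121 to 138), the Pi16-led B1 103 CPM (97.3 to 108), and the Angptl7- and Kera-led B15 1.26 CPM (0.410 to 2.95). Among endothelial-like clusters the Vwf-led B11 held 52.6 CPM (43.7 to 62.7) and B7 0.623 CPM (0.0755 to 2.25).

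Bmp2, a ligand close to Bmp4 in sequence, was at 52.3 ± 16.7 CPM in RPE-like cells, 44.4 ± 13.8 CPM in fibroblast-like cells and 42.4 ± 28.9 CPM in smooth muscle-like cells, and these did not separate. No Bmp2 UMI was seen in bipolar-like cells. Within fibroblast-like cells B1 held 64.6 CPM (60.4 to 68.9) and B15 2.53 CPM (1.21 to 4.64). The ciliary or iris epithelium-like cells held 219 CPM (197 to 243). Bmp7, a ligand needed for eye formation in the mouse, was at 53.4 ± 16.9 CPM in RPE-like cells and 47.6 ± 6.98 CPM in cluster B5, which overlapped, and at 21.1 ± 3.93 CPM in fibroblast-like and 19.2 ± 5.78 CPM in bipolar-like cells. In the bipolar-like class 42 of 50 Bmp7 UMIs came from cluster B22, the cluster that also held the most Tgfb2 (37.9 CPM of Bmp7, 27.3 to 51.2). Ciliary or iris epithelium-like cells again held the highest pooled value, 101 CPM (86.8 to 118).

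The receptor Bmpr1b (ALK6), a type I receptor for BMPs and growth differentiation factors, was at 200 ± 47.7 CPM in Müller glia-like cells, with every library above those of cluster B3 (83.1 ± 16.3 CPM). By molecules it was spread out, with 23.7% of its UMIs in B3, 22.8% in Müller glia-like and 21.0% in fibroblast-like cells. Smooth muscle-like cells held 51.1 ± 27.5 CPM and fibroblast-like cells 16.2 ± 7.33 CPM. Of the Müller glia-like UMIs, 556 of 557 lay in cluster B8 (median 6721.5 UMIs per cell), and 1 in B16 (median 1019 UMIs), where 5.06 CPM carries an interval of 0.128 to 28.2. An unnamed cluster of 82 cells led by Hs3st3a1, Ccdc3 and Glis1, B32, held 255 CPM (221 to 293). Fibroblast-like clusters B4 and B1 held 25.4 CPM (21.8 to 29.4) and 21.9 CPM (19.5 to 24.5), and B6 2.61 CPM (1.63 to 3.94).

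The 3 antagonists had different main holders, though Nbl1 UMIs were also counted at low levels in those of Grem1 and Nog. Rod-like cells, which held most Grem1 UMIs, had 672 Nbl1 UMIs (pooled 7.36 CPM). RPE-like cells, which held most Nog UMIs, had 42 (pooled 9.52 CPM). The part of fibroblast RNA in these counts was not tested. Nbl1 (DAN), a BMP-binding member of the cystine-knot antagonist family, was a stromal transcript: fibroblast-like cells held 848 ± 95 CPM and 72.4% of its UMIs. Skeletal muscle-like cells reached 951 CPM with a wide SD of 579, clusters B17 and B3 held 503.5 ± 147 and 503.3 ± 69.3 CPM, B5 457 ± 69.7 CPM and Müller glia-like cells 156 ± 44.8 CPM. Pooled values were 524 CPM (471 to 582) in 115 pericyte-like cells and 291 CPM (265 to 318) in ciliary or iris epithelium-like cells. Among fibroblast-like clusters B6 held 1378 CPM (1353 to 1404), B4 1080 CPM (1056 to 1105), B1 663 CPM (649 to 676) and B15 63.6 CPM (56.0 to 72.0).

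Nog encodes noggin, which binds BMPs and blocks their receptor sites. It was held almost wholly by RPE-like cells, at 166 ± 39.3 CPM and 769 of 898 UMIs (85.6%). The next class, smooth muscle-like cells, held 7.61 ± 8.71 CPM, and all 40637 rod-like cells together gave 13 UMIs. In the deeper RPE-like cluster B0 (980 cells, median 2571.5 UMIs), 38.3% of cells had a Nog UMI, 42.7% a Bmp4 UMI and 18.9% both. In rod-like cells, with a median of 2238 UMIs, 0.0320% had a Nog UMI, 0.185% a Bmp4 UMI and none both. So Bmp4 and its antagonist were detected together in single RPE-like cells of cluster B0 in every library, from 16.04% to 33.3% of them. The share expected had each been detected independently of the other was not computed, so no link between them is read from this.

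Grem1, encoding gremlin, another secreted BMP antagonist, was scarce. Of its 517 UMIs, 375 (72.5%) lay in rod-like cells, where the level was 4.05 ± 0.946 CPM. Bipolar-like cells held 3.76 ± 3.56 CPM and cone-like cells 3.26 ± 2.68 CPM. Pooled values were higher, with intervals above that of rod-like cells, in 2 small named classes, on few UMIs. The 86 amacrine-like cells held 12.6 CPM (6.70 to 21.5, 13 UMIs). Ciliary or iris epithelium-like cells held 10.1 CPM (5.91 to 16.2, 17 UMIs), beside a pooled 4.11 CPM (3.70 to 4.54) in rod-like cells. Melanocyte-like cells held 8.98 CPM (2.92 to 21.0, 5 UMIs), an interval that took in the rod-like value. Small rod-marker cluster A23 and cluster B23 had means of 5.22 and 4.37 CPM. B17 had a mean of 7.78 CPM that rested on 2 libraries, with 19 of its 25 UMIs in tropicamide replicate 2. RPE-like, endothelial-like and smooth muscle-like cells had 0 Grem1 UMIs, which allows up to 0.680, 0.341 and 1.27 CPM at 3 counts, and fibroblast-like cells had 2 UMIs.

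**Figure D2:**
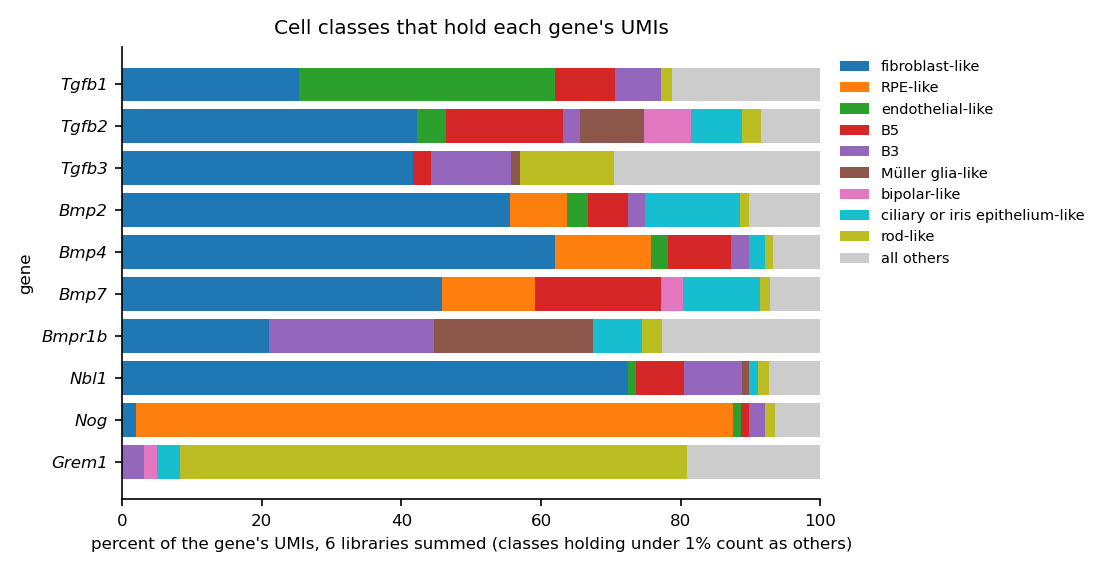
Percent of each gene's UMIs (horizontal axis, 6 libraries summed) held by 9 named classes or unnamed clusters, with all others in grey. Fibroblast-like cells held the largest piece for Tgfb2, Tgfb3, Bmp2, Bmp4, Bmp7 and Nbl1 (72.4%), RPE-like cells for Nog (85.6%) and rod-like cells for Grem1 (72.5%).

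For each gene up to 3 genes with the most similar pattern are given, taken by Pearson's correlation of log2(CPM + 1) over 21 classes and clusters, each the mean of the same 6 libraries, among 14451 genes. These values describe the classes and carry no test, since the classes share libraries and several are rod-marker clusters. Nbl1 was nearest to Fjx1 (r = 0.97), S100a6 (0.97) and Dkk2 (0.95), and Tgfb2 to St7 (0.96), Fnbp1 (0.93) and Ptprj (0.93). Tgfb1 was nearest to Ets1, Adgre5 and Ahnak (each 0.93), and Tgfb3 to Prelp (0.90) and Septin6 (0.89). Bmp4 was nearest to Lamb1 (0.92), Islr (0.90) and Wls (0.90), and Bmp2 to Sem1 (0.91), Lamp2 (0.89) and Fap (0.89). Nog was nearest to Prdm16os, Cldn2 and H2aj (each 0.91), and Bmpr1b to Parvaos, Slc47a2 and Rbm46 (0.89, 0.89 and 0.88). Bmp7 (Cntnap4, 0.85, A2m, 0.78, and Ntrk2, 0.77) and Grem1 (Prss35, 0.77, Sephs1, 0.74, and Edil3, 0.71) had looser neighbours.

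Tropicamide, a muscarinic receptor antagonist, was then compared with saline within each class, with edgeR's quasi-likelihood test on UMIs summed per library (adjusted p under 0.05 by Benjamini-Hochberg over all genes tested). Nothing in the sources says that a pool is other than a separate set of eyes, and p-values measure the spread between pools. Since the 10 genes were chosen with this contrast in view, their differences are described by values, with the standard error (SE) of the fit, and nothing is read from how many passed. Overlap between the groups' libraries is given as a description. The share of all genes without overlap was not counted, so nothing is read from how many lacked it. In rod-like cells 7 of the 10 genes passed the low-count filter and 1, Nbl1, passed the threshold, where 8.68% of all genes tested did. In fibroblast-like cells 8 were tested and none passed in edgeR, with 2 at an unadjusted p under 0.05 and 1, Bmpr1b, called by DESeq2 (0% of all genes called by edgeR). In RPE-like cells 5 were tested and none passed (0.121% of all genes), with 1 at an unadjusted p under 0.05 in edgeR and 0 by DESeq2. In endothelial-like cells 5 were tested and none passed in edgeR (0%), with 3 at an unadjusted p under 0.05, and DESeq2 gave no adjusted p for any of them. Clusters B3 (6 tested, 0.0243% of all genes called), B5 (7 tested, 0.0884%), Müller glia-like cells (3 tested, 2.28%), bipolar-like cells (1 tested, 0.0281%) and A1 (1 tested, 2.33%), a rod-marker cluster led by haemoglobin transcripts, gave none, with 1, 2, 1, 0 and 0 at an unadjusted p under 0.05 in edgeR and 0 by DESeq2, which gave no adjusted p for 1 gene in B3, 2 in B5 and 1 in A1. Over all genes tested, 1568 of 13471 in fibroblast-like, 322 of 4972 in RPE-like and 656 of 10290 in endothelial-like cells had an unadjusted p under 0.05. DESeq2 called 132, 2 and 16 of all genes there. In B3, B5, Müller glia-like cells, bipolar-like cells and A1 the unadjusted counts were 609 of 8232, 649 of 9047, 916 of 6722, 445 of 7112 and 1507 of 10320. DESeq2 called 20, 16, 144, 4 and 101 there. No gene of the set passed the filter in clusters A13, A17 and A21.

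**Figure D3:**
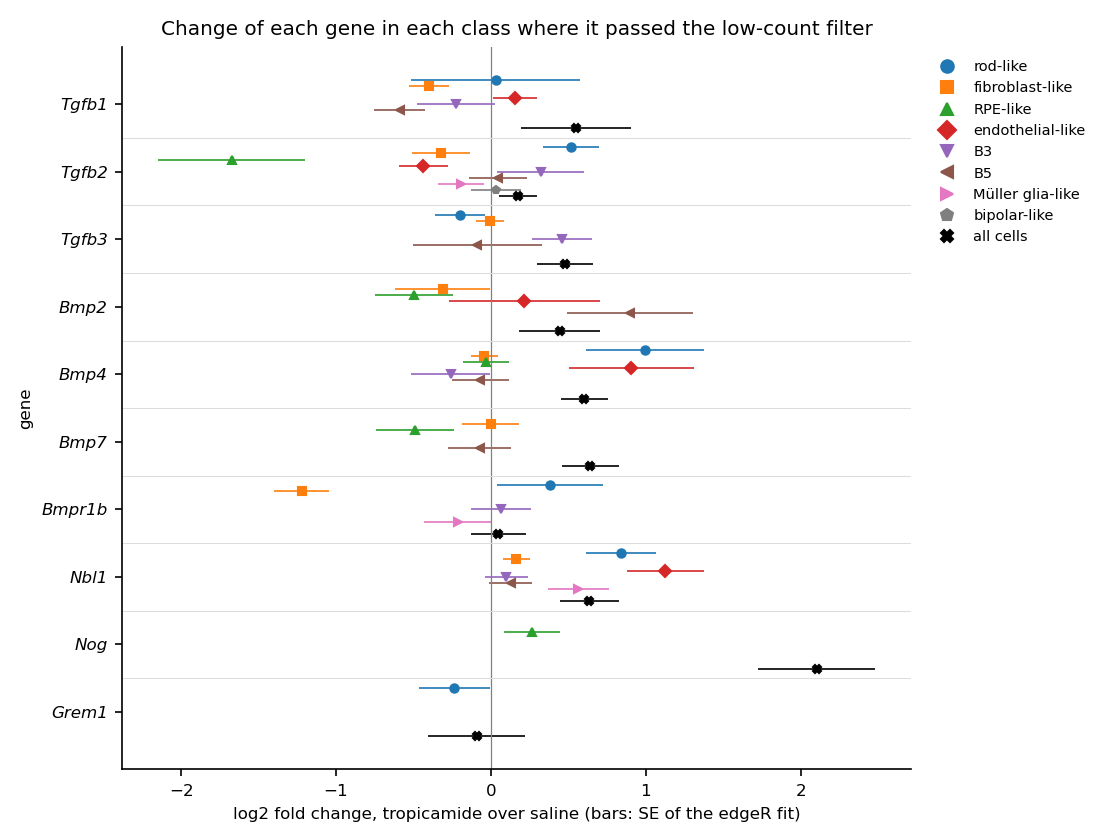
Log2 fold change of tropicamide over saline (horizontal axis) with the SE of the edgeR fit, for each gene (rows) in each class where it passed the low-count filter, 3 libraries a group. Bmpr1b in fibroblast-like cells (-1.22) and Tgfb2 in RPE-like cells (-1.67) stand lowest, and Nog in all cells summed (2.10) highest.

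Bmpr1b, the receptor, stood in fibroblast-like cells at 8.63, 10.6 and 10.8 CPM in the tropicamide libraries and at 27.3, 19.5 and 20.2 CPM in the saline libraries. Every tropicamide library was below every saline library, a log2 fold change of -1.22 ± 0.18 (SE, n = 3 and 3). The lower values appeared in both clusters that held most of the transcript: B1 had 10.5, 16.4 and 15.7 CPM against 42.6, 17.8 and 28.1 CPM (log2 fold change -1.08), and B4 had 23.7, 16.2 and 13.6 CPM against 29.7, 67.0 and 30.4 CPM (-1.19), both without overlap. B6 had 22 Bmpr1b UMIs in all. B1 made up 21.4% to 40.0% of fibroblast-like cells after tropicamide and 39.2% to 45.3% after saline. In the other main holders of the receptor the groups overlapped: Müller glia-like cells had 128, 194 and 237 CPM against 209, 261 and 168 CPM (log2 fold change -0.21 ± 0.22), and cluster B3 had 98.3, 91.8 and 67.3 CPM against 67.2, 71.1 and 103 CPM (0.07 ± 0.19). Summed over all cells Bmpr1b differed by 0.05 ± 0.18.

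**Figure D4:**
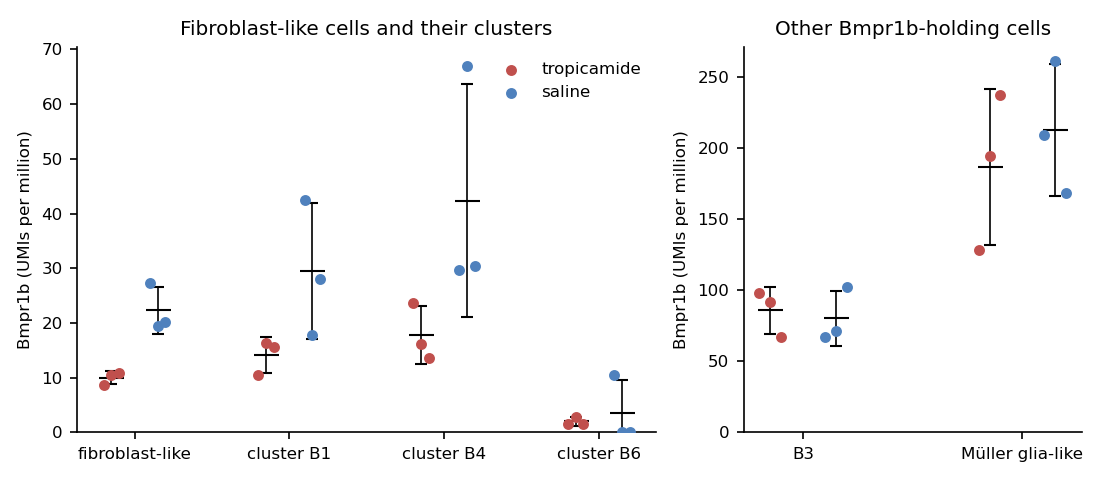
Bmpr1b level (vertical axes, CPM) in each tropicamide and saline library, with the mean and SD of 3 libraries, for fibroblast-like cells and 3 of their clusters (left) and for cluster B3 and Müller glia-like cells (right, other scale). In fibroblast-like cells the tropicamide points lie between 8.63 and 10.8 and the saline points between 19.5 and 27.3, while the groups overlap on the right.

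Among the other genes of the set in fibroblast-like cells, Tgfb1 did not overlap. It was at 26.4, 34.2 and 27.8 CPM after tropicamide and 38.1, 39.3 and 34.7 CPM after saline, a log2 fold change of -0.40 ± 0.13. It was also lower without overlap in cluster B5, at 55.3, 55.9 and 56.6 CPM against 69.3, 95.4 and 80.2 CPM (-0.59 ± 0.17). In endothelial-like cells, its highest source, Tgfb1 overlapped at 209, 182 and 158 CPM against 142, 155 and 186 CPM (0.16 ± 0.14). Bmp4 in fibroblast-like cells was level, at 124, 110 and 124 CPM against 121, 112 and 118 CPM (-0.04 ± 0.09), as were Tgfb3 (-0.01 ± 0.09) and Bmp7 (-0.00 ± 0.18). Bmp2 (-0.31 ± 0.31), Tgfb2 (-0.32 ± 0.19) and Nbl1 (0.16 ± 0.09) overlapped between groups.

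In RPE-like cells the transcripts that define the class's place in the set, Nog and Bmp4, overlapped between groups. Nog was at 145, 206 and 168 CPM after tropicamide and 135, 219 and 122 CPM after saline (log2 fold change 0.27 ± 0.18). Bmp4 was at 196, 187 and 216 CPM against 210, 267 and 172 CPM (-0.03 ± 0.15). Bmp2 (-0.50 ± 0.25) and Bmp7 (-0.49 ± 0.25) overlapped too. Tgfb2, with 54 UMIs in the class, was at 4.83, 11.6 and 7.53 CPM against 23.3, 42.5 and 24.9 CPM, without overlap (-1.67 ± 0.48). In cluster B0 alone it had 3, 9 and 5 UMIs against 4, 2 and 9 UMIs, or 6.32, 7.34 and 4.37 CPM against 26.2, 15.6 and 27.7 CPM. Other lists moved in these cells as well. The melanocyte marker list summed to 2457 to 3959 CPM after tropicamide and 4189 to 6244 CPM after saline (1 of 8 genes with a higher mean after tropicamide, none at 0). The ciliary or iris epithelium list summed to 1525 to 1730 CPM against 1731 to 1754 CPM (1 of 8 higher, with Optc and Zic1 at 0). The melanocyte list was the second-scoring list in all 3 RPE-like clusters (1.58 in B0, 1.64 in B2 and 1.62 in B33). The ciliary or iris list shares Mlana with it. Neither sum can therefore be read as RNA from melanocytes or from ciliary or iris cells. Melanocyte-like cells held 145 CPM of Tgfb2 (116 to 181) and ciliary or iris epithelium-like cells 742 CPM. The fibroblast list summed to 439 to 607 CPM against 170 to 419 CPM, and the rod list overlapped. The part of these lists in the Tgfb2 values was not tested.

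Nbl1 was higher after tropicamide in 3 classes where it is a minor transcript. In endothelial-like cells it was at 87.0, 66.5 and 44.7 CPM against 35.9, 20.7 and 31.7 CPM, without overlap (log2 fold change 1.12 ± 0.25). Its level there depended on the cluster, at 17.8 CPM (13.4 to 23.0) in B7, 63.6 CPM in B11 and 84.8 CPM in B13. B7 made up 31.1% to 65.4% of the cells of the class after tropicamide and 42.8% to 64.1% after saline. Of the UMIs of the class, it held 24.5% to 49.0% against 42.0% to 56.1%. The small cluster B38, with the pericyte list second in score (2.24), held 6.96% to 18.4% of these UMIs against 0% to 10.0%. The pericyte marker list summed to 409 to 1205 CPM in endothelial-like cells after tropicamide and 10.3 to 581 CPM after saline, none of its 8 genes being at 0. Pericyte-like cells held a pooled 524 CPM of Nbl1, as given above. The fibroblast marker list summed to 420 to 511 CPM against 138 to 392 CPM there, without overlap, with 8 of 10 genes having a higher mean after tropicamide and none at 0. The part of either list in the difference was not tested. In Müller glia-like cells Nbl1 was at 180, 235 and 150 CPM against 128, 133 and 112 CPM, without overlap (0.56 ± 0.20, and 0.52 in cluster B8 alone). There the fibroblast marker list summed to 359 to 1456 CPM after tropicamide and 173 to 339 CPM after saline, with all 10 genes having a higher mean after tropicamide. Per 1000 UMIs of that list Nbl1 stood at 162, 161 and 417 after tropicamide and 579, 766 and 332 after saline, with overlap. Median UMIs per cell of the class were 1262 to 1993 against 3286 to 7459. The part of the list or of depth in the Nbl1 difference was not tested.

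In rod-like cells Nbl1 was at 9.46, 12.6 and 6.99 CPM after tropicamide and 5.72, 3.92 and 6.83 CPM after saline (log2 fold change 0.84 ± 0.23). In the fibroblast marker list in the same cells all 10 genes had a higher mean after tropicamide, none was at 0, and their sum was 409 to 536 CPM against 196 to 402 CPM. The ratio of Nbl1 to these marker UMIs was 19.5 ± 2.75 per 1000 in rod-like cells and 13.6 ± 1.65 per 1000 in fibroblast-like cells. It was 17.3 ± 12.0 per 1000 in RPE-like cells, 136 ± 38.7 per 1000 in endothelial-like cells and 403 ± 239 per 1000 in Müller glia-like cells. In rod-like cells the ratio was 17.7, 23.9 and 17.1 after tropicamide and 21.3, 20.1 and 17.01 after saline, and the groups overlapped. The part of fibroblast RNA in the Nbl1 values was not tested. Nbl1 was not called in rod-like cells without tropicamide replicate 1 or 2, without saline replicate 1 or 2, with a replicate block, or with the other rod-marker clusters joined. Bmp4 in rod-like cells was at 1.53, 1.03 and 0.912 CPM against 0.715, 0.341 and 0.677 CPM (0.99 ± 0.38), and Tgfb2 at 5.59, 6.17 and 6.87 CPM against 5.40, 3.58 and 4.37 CPM (0.52 ± 0.18), both without overlap. Bmp4 rested on 75 UMIs there. The RPE marker list summed to 221 to 440 CPM in rod-like cells after tropicamide and 64.5 to 125 CPM after saline. Of its 10 genes 9 had a higher mean after tropicamide and none was at 0. The part of RPE or fibroblast RNA in the Bmp4 and Tgfb2 values was not tested. Grem1 overlapped at 3.51, 2.95 and 4.56 CPM against 5.14, 4.95 and 3.2 CPM (-0.24 ± 0.23), as did Tgfb3 (-0.20 ± 0.16), Bmpr1b (0.38 ± 0.34) and Tgfb1 (0.03 ± 0.55). In cluster A1 Nbl1 overlapped (0.60 ± 0.40).

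Values in the other unnamed stromal clusters and the remaining classes follow. Tgfb3 in B3 was at 58.6, 77.6 and 68.9 CPM after tropicamide and 48.0, 45.8 and 49.9 CPM after saline, without overlap (0.46 ± 0.19). Tgfb2 in B3 (0.32 ± 0.28), in B5 (0.04 ± 0.19) and in bipolar-like cells (0.03 ± 0.16) overlapped, as did Bmp2 in B5 (0.90 ± 0.41), which rested on 153 UMIs over 6 libraries. Tgfb2 in endothelial-like cells was at 70.9, 71.9 and 78.5 CPM against 89.8, 131 and 92.8 CPM, without overlap (-0.44 ± 0.16), and Bmp4 there overlapped (0.91 ± 0.40). In Müller glia-like cells, its highest compared class, Tgfb2 overlapped (-0.19 ± 0.15).

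Summed over all cells of a library, as a bulk sample would be, Nog was at 4.02, 8.71 and 8.12 CPM after tropicamide and 1.14, 1.58 and 2.20 CPM after saline, a log2 fold change of 2.10 ± 0.38 without overlap. RPE-like cells, which held 82.5 ± 13.0% of the Nog UMIs over the 6 libraries (63.6% to 93.5%), made up 3.21%, 5.71% and 4.95% of cells against 1.05%, 0.691% and 1.91%. Within those cells Nog differed by 0.27 on the log2 scale, as above. In such sums more cells of a type and more RNA per cell cannot be told apart. Bmp4 (0.60 ± 0.15), Bmp7 (0.64 ± 0.18) and Nbl1 (0.64 ± 0.19) were also higher in the sums without overlap, while in fibroblast-like cells, their largest holder, they differed by -0.04, -0.00 and 0.16. All 10 genes passed the filter in the sums and none passed the threshold in edgeR (0.00501% of all genes), with 5 at an unadjusted p under 0.05 and 2, Nog and Bmp4, called by DESeq2. Over all 19969 genes tested in the sums these counts were 3304 and 483.

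**Figure D5:**
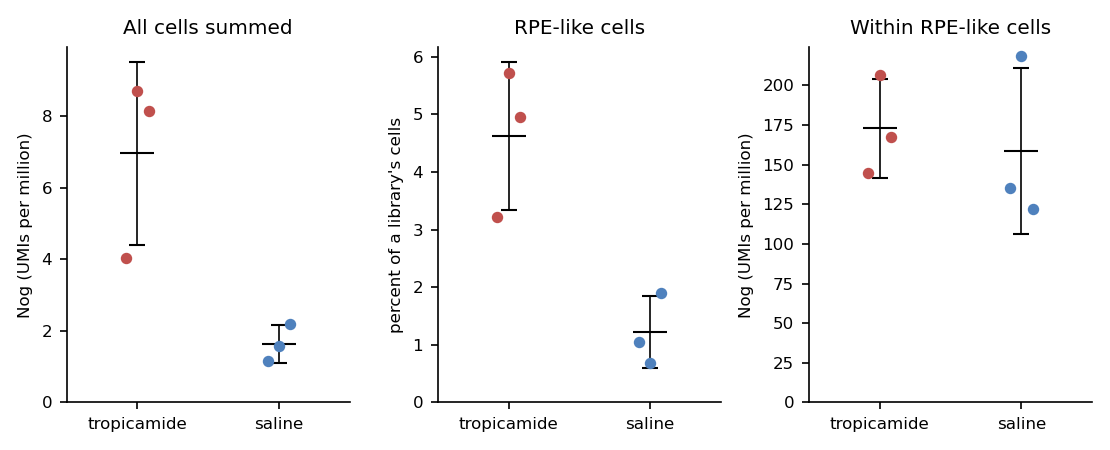
Nog in all cells summed (left, CPM), the percent of a library's cells that are RPE-like (middle), and Nog within RPE-like cells (right, CPM), for each library with the mean and SD of 3. The groups separate on the left (lowest tropicamide 4.02, highest saline 2.20) and in the middle, and overlap on the right.

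The rest of the pathway was read from 90 further genes in 7 lists: other ligands, other receptors, other extracellular antagonists, latency and activation, Smads and their regulators, BMP targets and TGF-beta targets. In rod-like cells 66 were tested and 6 rose after tropicamide while none fell, a share near the 8.68% of all genes called there and so no result about the pathway. The median log2 fold change of the 66 was 0.15 against -0.00 over all genes. Of the 14 TGF-beta target genes tested 3 rose, of 9 latency and activation genes 2, and of 8 antagonists 1. Col1a1, which encodes a chain of type I collagen, rose from 47.4, 34.3 and 65.4 CPM to 104, 89.8 and 71.2 CPM (a log2 difference of 0.87 ± 0.18, adjusted p = 0.0134 in edgeR), and Col3a1, of type III collagen, by 0.71 ± 0.18 (adjusted p = 0.0327). Both are among the fibroblast markers that moved in rod-like cells as given above, and in fibroblast-like cells they differed by 0.01 ± 0.11 and 0.01 ± 0.12 (edgeR adjusted p = 0.982 for both). DESeq2 called neither in rod-like cells (adjusted p = 0.0516 and 0.165). The other 4, with means under 20 CPM and named after their values were seen, were Ccn2 (1.83), Itgb8 (1.54), Thbs1 (1.23) and Fstl1 (0.89). In cluster A1, where 2.33% of all genes were called, 2 of 36 rose, Col1a1 and Col3a1 (both 0.68), and 1 fell, Junb (-0.48 ± 0.11, edgeR adjusted p = 0.0105). Without tropicamide replicate 2 none of the 66 genes passed in rod-like cells.

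In fibroblast-like cells 0 of 79 further pathway genes passed in edgeR, with 15 at an unadjusted p under 0.05 and 4 called by DESeq2. Over all 13471 genes tested there these counts were 1568 and 132. The median of the 79 was -0.13 and 26 lay above 0, where 52.0% of all genes did. The smallest p-values belonged to Smurf2, a ubiquitin ligase that acts on Smads and receptors (log2 difference -0.46 ± 0.08, adjusted p = 0.153 in edgeR), Tll1, a protease that cleaves the BMP antagonist chordin (-1.06 ± 0.20, 0.155), and Ltbp1, which anchors latent TGF-beta (-0.60 ± 0.14, 0.205). Smurf2 stood at 222, 239 and 218 CPM after tropicamide and 295, 298 and 297 CPM after saline, Tll1 at 50.6, 44.8 and 27.4 CPM against 78.9, 98.8 and 67.9 CPM, and Ltbp1 at 330, 356 and 453 CPM against 553, 586 and 507 CPM. None of the 3 overlapped between groups, and all were called by DESeq2 (adjusted p = 0.00667, 0.000345 and 0.0132). Since the 3 were picked by their edgeR p-values on the same counts, neither is separate support. In endothelial-like cells 0 of 63 passed in edgeR, with 8 at an unadjusted p under 0.05 and 2 by DESeq2. Over all 10290 genes tested there these counts were 656 and 16. Smad7, the inhibitory Smad induced by both branches, was at 371, 428 and 394 CPM against 266, 269 and 266 CPM (0.58 ± 0.11, edgeR adjusted p = 0.195), Smad6, the inhibitory Smad of the BMP branch, differed by 0.51 ± 0.16 (0.578) and Fn1, fibronectin, by -0.72 ± 0.19 (0.398).

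In Müller glia-like cells 1 of 45 passed, a share near the 2.28% of all genes called there. It was Junb, an immediate early gene on the TGF-beta target list, which fell by 0.87 ± 0.13 on the log2 scale (edgeR adjusted p = 0.00113), a gene that many other signals also induce. Clusters B16 and B8 took different parts of this class, B16 holding 46.4% to 46.7% of its cells after tropicamide and 20.3% to 28.1% after saline, and median UMIs were 1262 to 1993 against 3286 to 7459. In RPE-like cells 0 of 25 passed in edgeR (4 at an unadjusted p under 0.05, 0 by DESeq2), in B3 0 of 67 (14 and 0), in B5 0 of 61 (5 and 0), in bipolar-like cells 0 of 29 (3 and 0) and in the sums over all cells 0 of 86 (15, and 5 by DESeq2). Over all genes the unadjusted counts were, in the same order, 322 of 4972, 609 of 8232, 649 of 9047, 445 of 7112 and 3304 of 19969. DESeq2 called 2, 20, 16, 4 and 483 of all genes. The smallest p-values there belonged in RPE-like cells to Col1a1 (1.13 ± 0.30), Col3a1 (0.67 ± 0.22) and Thbs1 (-0.33 ± 0.13), in B3 to Bambi, a pseudoreceptor (-0.52 ± 0.16), Pmepa1 (-0.39 ± 0.12) and Ppm1a (0.48 ± 0.16), and in B5 to Itgb8 (1.42 ± 0.37), Id3 (-0.32 ± 0.10) and Acvr1b (-0.99 ± 0.37). In bipolar-like cells they were Col1a1 (0.85 ± 0.24), Itgav (0.87 ± 0.28) and Col3a1 (0.75 ± 0.30), and in all cells Itgb8 (1.49 ± 0.28), Sostdc1 (1.29 ± 0.29) and Ltbp2 (1.12 ± 0.28), with edgeR adjusted p of 0.218 to 0.683 over these 15. Whether a class changed otherwise than rod-like cells was tested with limma on the per-library difference of log2 CPM. It passed for 0 of 25 to 62 further pathway genes in each of 8 classes (0% of all genes tested), with 3 to 13 of them at an unadjusted p under 0.05, and no other tool was run. Over all genes, 455 of 4837 (RPE-like cells) to 1772 of 12124 (fibroblast-like cells) were at an unadjusted p under 0.05.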

How the data were processed

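The authors deposited whole-number UMI count matrices of 6 droplet single-cell libraries, made with Cell Ranger 8.0.1 and STAR on GRCm39, per the submitters' processing notes. No source used here gives the annotation release or says whether intronic reads were counted. The labels' extraction text describes bone tissue and cell sorting, which does not match the ocular tissue they name, and nothing was taken from it.

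A filter on barcodes (500 UMIs or more, 300 genes or more, no more than 20% mitochondrial) removed 416, and 5922 likely doublets were removed by comparison with simulated doublets. Cells were clustered with leidenalg 0.10.2 in 2 rounds, and clusters were named from fixed marker lists. Names are rebuilt and may differ from the study's. UMIs were summed per library and class and tested with edgeR 4.0.16 (TMM, filterByExpr, quasi-likelihood, Benjamini-Hochberg, threshold 0.05) where every library had 30 or more cells of the class. DESeq2 1.42.0 was an alternative, and limma 3.58.1 (prior count 2) tested a class's change against that of rod-like cells. The tests were run on simulated data first.

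The 10 genes and all lists were chosen with earlier results of these data known. Outside the set, genes past the threshold with a mean of at least 20 CPM were named, or the 3 of smallest p where none passed. Of the 3 genes most alike Tgfb3 in pattern, 1 is not reported here. Intervals (95%, exact Poisson) and limits at 3 counts cover counting error only. Libraries shared 22 to 64 barcodes in a pair, and replicates of a group differed by more than counting noise (chi-square per degree of freedom 2.96 to 7.13). Alternatives were other size factors, DESeq2, no low-count filter, a replicate block, each library left out and a stricter cell filter.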

Additional observations from a re-analysis of the deposited data

How the results depend on the processing

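Of the 53 log2 fold changes of the 10 genes, 17 took the other sign under an alternative, none of them past the threshold (Tgfb1 in rod-like cells ran from -0.41 to 0.82 with 1 library left out), and 0 of 27 of the further pathway genes named did. Bmpr1b in fibroblast-like cells ranged from -1.31 to -1.06 with 1 library left out. The mean levels of the 10 genes in their highest classes moved by less than the SD over libraries under a stricter cell filter and within either group. The causes of the moves below were not tested.

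Without the low-count filter the genes called were 2200 in rod-like cells, 561 in fibroblast-like, 26 in RPE-like, 150 in endothelial-like, 79 in B3, 106 in B5, 262 in Müller glia-like, 61 in bipolar-like cells and 6 in all cells summed. Further pathway genes called were then 15, 10, 1, 5, 1, 1, 4 and 1 in the same order up to bipolar-like cells, and 1 of the 10 genes was called in fibroblast-like and 1 in endothelial-like cells. DESeq2 called 101 genes in A1, 132 in fibroblast-like, 2 in RPE-like, 16 in endothelial-like cells, 20 in B3, 16 in B5, 4 in bipolar-like cells and 483 in all cells. It called 1 further pathway gene in A1, 4 in fibroblast-like, 2 in endothelial-like, 2 in Müller glia-like cells and 5 in all cells, and of the 10 genes 1 in fibroblast-like cells and 2 in all cells. A stricter cell filter left 75 genes in Müller glia-like cells and 3 in all cells.

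The replicate numbers gave little pairing of the samples (correlations of same-numbered deviations of at most 0.063). In Müller glia-like cells (0.019 to 0.061) and A17 (0.008 to 0.029) each tropicamide library was still most alike the saline library of its own number. With a replicate block 17 genes were called in RPE-like, 1 in endothelial-like cells, 15 in B3, 9 in bipolar-like cells and 2 in all cells, with 1 further pathway gene in RPE-like and 2 in Müller glia-like cells and 0 of the 10 genes in rod-like cells. In alternatives added after seeing the data, 0 of the 10 were called in rod-like cells joined with the other rod-marker clusters, and cluster B6 alone gave 5 genes, B0 13 and B8 53.

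With each library left out in turn, genes called ranged from 297 to 1985 in rod-like cells, 100 to 174 in A1, 0 to 206 in fibroblast-like, 1 to 16 in RPE-like, 0 to 22 in endothelial-like cells, 2 to 10 in B3, 2 to 15 in B5, 14 to 197 in Müller glia-like, 0 to 14 in bipolar-like cells and 1 to 31 in all cells. Further pathway genes ranged from 0 to 14 in rod-like cells, 1 to 3 in A1, 0 to 6 in fibroblast-like, 0 to 1 in RPE-like, 0 to 1 in endothelial-like and 1 to 3 in Müller glia-like cells. Of the 10 genes, 0 to 1 were called in rod-like, 0 to 2 in fibroblast-like and 0 to 1 in endothelial-like cells, the highest counts of the last pair arising without tropicamide replicate 3. Genes changing otherwise than in rod-like cells ranged from 0 to 1 in endothelial-like, 0 to 10 in Müller glia-like and 0 to 2 in bipolar-like cells. Depth limits values that rest on few UMIs, such as Tgfb2 in RPE-like cells with 54.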
